A study of Homo sapiens with 12 samples.

Results

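The RNA of ATF4, the transcription factor of the amino acid and integrated stress response, and of 9 genes known as its targets or partners in that response was followed in docetaxel-resistant and parental prostate cancer cells. The genes were taken by name: ATF4, ATF3, ASNS, CHAC1, TRIB3, DDIT3, DDIT4, SESN2, PSAT1 and STC2. All 10 were found among the 38611 genes of each table, and all 10 were among the 24128 genes with enough counts to be tested. The data are 12 RNA sequencing libraries, 3 each of docetaxel-resistant PC3, parental PC3, docetaxel-resistant DU145 and parental DU145. PC3 and DU145 are human prostate cancer cell lines established from metastases in bone and brain, and docetaxel is a taxane, a class of drug that freezes microtubules and so stops mitosis. The resistant sublines were raised in stepwise higher drug, until the IC50 of PC3 had reached 15 after a start at 0.5, and that of DU145 had reached 1800 after a start at 10, in a unit the labels write as nm/ml. The parental cells are labelled as controls. All cells were kept in DMEM with 10% fetal bovine serum, penicillin and streptomycin. Whether the sublines are clones, and whether drug was present when RNA was taken, is not given in the sources used here. Nor is it stated that the 3 libraries of a group are independent cultures. The p-values below therefore describe the spread between these libraries, part or all of which could be technical.

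Cells that run short of amino acids, or whose endoplasmic reticulum is overloaded, phosphorylate the translation factor eIF2alpha. General translation then slows while translation of the ATF4 message increases, so that ATF4 activity is set largely at the protein level. ATF4 pairs with C/EBP family proteins and raises genes of amino acid synthesis and uptake, and, under lasting stress, genes that promote cell death. Neither ATF4 protein nor eIF2alpha phosphorylation was measured here, and the values are of RNA only.

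Library totals lay between 62513103 and 72530254 counts. The mitochondrial genome supplied 3.50% ± 0.04 of counts in resistant PC3, 5.82% ± 0.20 in parental PC3, 7.08% ± 0.05 in resistant DU145 and 4.11% ± 0.17 in parental DU145 (SD, n = 3 each). No library stood apart by its distance from the others of its group, which was 0.378 to 0.441 log2 units (root mean square over 12202 genes) for every pair. CTNNA1, known to be deleted in PC3, averaged 2.23 CPM in resistant PC3, 2.91 CPM in parental PC3, 383 CPM in resistant DU145 and 519 CPM in parental DU145. It was thus low in both PC3 groups and high in both DU145 groups. CPM is a count scaled to a library total of 1e+06. The epithelial markers KRT8, KRT18, KRT19, EPCAM and CDH1 were taken as a sum. It lay between 551 and 585 CPM in resistant PC3 and 1031 and 1044 CPM in parental PC3. In DU145 it lay between 1530 and 1569 CPM in resistant cells and 896 and 934 CPM in parental cells. In resistant PC3 all 5 averaged lower than in parental PC3, with CDH1 at 1.03 against 9.94 CPM. In resistant DU145 KRT19 was lower (172 against 213 CPM) and the others were higher, with CDH1 at 74.3 against 3.81 CPM. The sum of 5 leukocyte markers stayed at or below 1.14 CPM in every library, with PTPRC at 0 in all DU145 libraries. That of 5 fibroblast markers was 11.2 to 17.9 CPM in resistant PC3 and 109 to 114 CPM in parental PC3, and 5.18 to 9.62 CPM in resistant DU145 and 21.7 to 35.2 CPM in parental DU145, with COL1A1 alone at 103 CPM in parental PC3. The 5 endothelial markers summed to 53.9 to 77.3 CPM in resistant PC3 and 177 to 233 CPM in parental PC3, and to at most 0.986 CPM in DU145. In PC3 KDR and PECAM1 gave nearly all of it, and VWF, CDH5 and TEK averaged at most 0.41 CPM. The part of these markers, and of the mitochondrial share, in the results below was not tested.

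Promoter stretches are shown here because ATF4 paired with a C/EBP protein is known to bind an element with the core TGATGNAA, and these are the stretches that held it. Promoters were RefSeq windows of GRCh38.p14 from 250 bases before to 50 bases after a transcription start, and all 10 genes had at least 1, with 16 windows in all. The letters TGATGNAA, read on both strands, occurred in 1 window each of ATF3, ASNS and CHAC1, 3 of 10 genes. Over all promoters in the table they occurred in 3.62% of 35116 windows and in 4.46% of 27305 genes. Capitals mark the 8 matching letters, which in CHAC1 read TGATGNAA on the opposite strand.
ATF3 promoter, chr1:212565205-212565234, plus strand: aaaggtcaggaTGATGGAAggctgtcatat
ASNS promoter, chr7:97872458-97872487, minus strand: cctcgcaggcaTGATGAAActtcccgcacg
CHAC1 promoter, chr15:40953251-40953280, plus strand: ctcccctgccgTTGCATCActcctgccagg
The matches began 191, 68 and 209 bases before the start of the ATF3, ASNS and CHAC1 windows' transcripts. In the GENCODE annotation of the same genome, the ASNS stretch lay within the untranslated first exon of a longer ASNS transcript. The CHAC1 stretch lay in the untranslated part of the first exon of longer CHAC1 transcripts, and the ATF3 stretch lay in no ATF3 exon. The cyclic AMP response element TGACGTCA was in none of the 16 windows, against 1.85% of all windows. Such matches describe letters only.

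The resistant sublines were compared with their parental lines to see whether this group of genes moved with docetaxel resistance, and whether it did so alike in PC3 and DU145. In resistant PC3, 8 of the 10 genes passed the test, 3 higher and 5 lower than in parental PC3. Across all 24128 genes tested, 44.0% passed in that comparison, 22.4% higher and 21.6% lower. In resistant DU145, all 10 genes passed, 1 higher and 9 lower, where 39.6% of all genes passed, 18.9% higher and 20.7% lower. A gene is called here at a Benjamini-Hochberg adjusted p under 0.05 over all genes tested, from edgeR's two-sided quasi-likelihood test on 3 libraries per group. The 10 genes had a median log2 change of -0.07 in PC3 and -0.52 in DU145, against 0.00 over all genes tested in each line. The resistant and parental libraries did not overlap for 8 of 10 genes in PC3 and for 10 of 10 in DU145, which holds for 54.4% and 51.2% of all genes tested. CHAC1, TRIB3, DDIT4, PSAT1 and STC2 fell in both resistant sublines. ATF3, ASNS and SESN2 rose in resistant PC3 and fell in resistant DU145. DDIT3 fell in resistant DU145 without passing in PC3, and ATF4 was the single gene that rose in resistant DU145. In bulk RNA, fewer cells carrying a transcript and less of it per cell cannot be told apart.

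**Figure D1:**
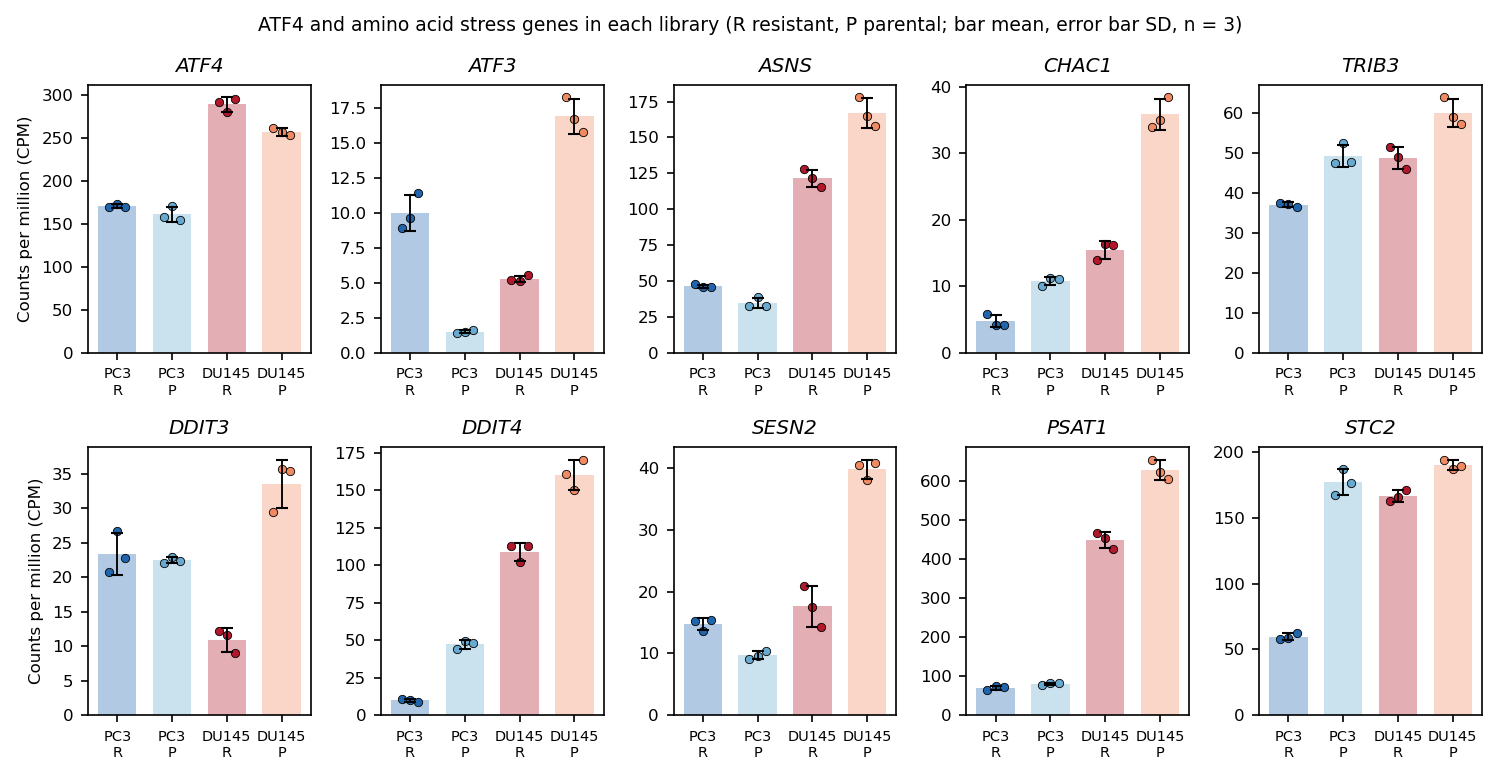
CPM of each gene (vertical axes, each starting at 0) in the 12 libraries of resistant (R) and parental (P) PC3 and DU145; dots are libraries, bars the mean of 3 and error bars the SD. ATF3, ASNS and SESN2 stand higher in resistant than in parental PC3 and lower in resistant than in parental DU145, and DDIT4 and STC2 are lowest in resistant PC3.

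ATF4 (ENSG00000128272, GRCh38 chromosome 22, bases 39519672 to 39522683, plus strand) encodes the basic leucine zipper factor itself. Its RNA was at 169, 173 and 169 CPM in the 3 libraries of resistant PC3, against 158, 171 and 154 CPM in parental PC3. Those ranges overlapped. In DU145 it was at 291, 279 and 295 CPM in resistant cells, against 261, 256 and 252 CPM in parental cells, so that every resistant library lay above every parental one. The log2 change was 0.09 ± 0.04 (SE, adjusted p = 0.12) in PC3, and 0.17 ± 0.04 in DU145 (adjusted p = 0.004), a rise of 1.12-fold. The difference between these changes, PC3 minus DU145, was -0.08 ± 0.06 (adjusted p = 0.291). Both ATF4 calls differed on log2(TPM + 1) with limma, where the change was 0.17 in PC3 (adjusted p = 0.00321) and 0.02 in DU145 (adjusted p = 0.691), and without the second parental PC3 library edgeR gave 0.13 in PC3 (adjusted p = 0.021). The 4 processed pseudogenes ATF4P1 to ATF4P4 held 57, 57, 285 and 83 counts over the 12 libraries, at most 0.164% of the 174120 counts of ATF4.

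ATF3 (ENSG00000162772, chromosome 1, bases 212565334 to 212620772, plus strand) is a stress-induced factor of the same family, and one of the 3 genes with the ATF4 element letters shown above. Its values were 8.91, 9.63 and 11.4 CPM in resistant PC3, against 1.42, 1.47 and 1.61 CPM in parental PC3. In DU145 the order was turned round, with 5.17, 5.13 and 5.54 CPM in resistant cells, against 18.3, 16.7 and 15.8 CPM in parental cells. No resistant library overlapped a parental one in either line. ATF3 rose 6.67-fold in resistant PC3 (log2 change 2.74 ± 0.16, adjusted p = 1.12e-09), at the 95.9th percentile of all signed changes. It fell 3.20-fold in resistant DU145 (log2 change -1.68 ± 0.15, adjusted p = 2.13e-07), at the 6.79th percentile. The difference between the lines' changes, 4.42 ± 0.22, was the largest of the 10 genes (adjusted p = 2.18e-10). Among the 4 groups ATF3 ranked parental DU145, resistant PC3, resistant DU145 and parental PC3, and each step passed the test. On log2(FPKM + 1), which compresses low values, the PC3 change of ATF3 was 1.31.

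DDIT3 (ENSG00000175197, chromosome 12, bases 57516588 to 57521737, minus strand) encodes CHOP, a factor induced through ATF4 that is known to promote death under lasting stress. It was at 20.7, 26.7 and 22.8 CPM in resistant PC3, against 22.1, 22.9 and 22.3 CPM in parental PC3. The parental range lay inside the resistant one. In resistant DU145 it was at 12.2, 11.6 and 8.94 CPM, against 29.5, 35.7 and 35.4 CPM in parental DU145, with no overlap. The log2 change in PC3 was 0.06 ± 0.12 (adjusted p = 0.753), and -0.044 without the second resistant PC3 library. DDIT3 fell 3.07-fold in resistant DU145 (log2 change -1.62 ± 0.13, adjusted p = 4.66e-08). Its change differed between the lines by 1.68 ± 0.18 (adjusted p = 1.08e-06). DDIT3 is one of the uncertain genes, since its ends overlap MARS1 and MBD6 on the other strand and the strand setting of the counting is not given in the sources used here. MARS1 averaged 261 CPM in resistant PC3, 197 CPM in parental PC3, 335 CPM in resistant DU145 and 328 CPM in parental DU145. Its log2 change was 0.41 ± 0.05 in PC3 (adjusted p = 4.28e-06) and 0.03 ± 0.05 in DU145 (adjusted p = 0.661). MBD6 had a log2 change of -0.18 ± 0.07 in PC3 (adjusted p = 0.0434) and -0.05 ± 0.07 in DU145 (adjusted p = 0.67).

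TRIB3 (ENSG00000101255, chromosome 20, bases 362835 to 397559, plus strand) is a pseudokinase induced by ATF4 that restrains both AKT and ATF4 itself. It was at 37.5, 37.1 and 36.4 CPM in resistant PC3, against 47.5, 52.3 and 47.7 CPM in parental PC3. Resistant DU145 had 51.4, 49.0 and 45.8 CPM, against 63.9, 59.0 and 57.1 CPM in parental DU145. All resistant libraries lay below the parental ones of their line. The fall was 1.33-fold in PC3 (log2 change -0.41 ± 0.07, adjusted p = 7.95e-05) and 1.23-fold in DU145 (-0.30 ± 0.07, adjusted p = 0.00155). A difference between the changes did not pass (-0.11 ± 0.09, adjusted p = 0.382).

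Among the enzymes, ASNS (ENSG00000070669, chromosome 7, bases 97851677 to 97872542, minus strand) makes asparagine and is a classical ATF4 target, with the element letters printed above. It was at 47.6, 45.9 and 45.8 CPM in resistant PC3, against 32.3, 38.9 and 32.6 CPM in parental PC3, and all resistant libraries were higher. In DU145 all resistant libraries were lower, with 128, 121 and 116 CPM, against 178, 165 and 158 CPM in parental cells. ASNS rose 1.34-fold in PC3 (log2 change 0.43 ± 0.07, adjusted p = 0.000101) and fell 1.37-fold in DU145 (-0.46 ± 0.07, adjusted p = 4.96e-05). The changes differed by 0.88 ± 0.10 (adjusted p = 1.84e-06). ASNS thus moved in opposite directions, while both DU145 groups stayed far above both PC3 groups. ASNS is uncertain in its counting, because the gene AC079781 spans it on the same strand and held 8.29% as many counts. AC079781 averaged 5.50 CPM in resistant PC3, 6.09 CPM in parental PC3, 14.7 CPM in resistant DU145 and 4.47 CPM in parental DU145, and rose in resistant DU145 (log2 change 1.72 ± 0.25, adjusted p = 3.7e-05), where ASNS fell. The pseudogene ASNSP3 held 52 counts.

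PSAT1 (ENSG00000135069, chromosome 9, bases 78297125 to 78330093, plus strand) is the aminotransferase of serine synthesis. It was at 64.8, 73.1 and 70.5 CPM in resistant PC3, against 77.3, 81.0 and 81.3 CPM in parental PC3. Resistant DU145 had 465, 454 and 425 CPM, against 655, 623 and 605 CPM in parental DU145. PSAT1 was lower in every resistant library than in every parental library of the same line. It fell 1.15-fold in PC3 (log2 change -0.20 ± 0.05, adjusted p = 0.00384) and 1.40-fold in DU145 (-0.49 ± 0.05, adjusted p = 8.85e-07). The difference between the changes was 0.28 ± 0.07 (adjusted p = 0.00381). On log2(TPM + 1) with limma the PC3 change of PSAT1 was -0.12 and did not pass (adjusted p = 0.105). Its pseudogenes PSAT1P2 and PSAT1P3 held 2 and 59 counts beside 244032 for PSAT1.

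CHAC1 (ENSG00000128965, chromosome 15, bases 40952962 to 40956512, plus strand) encodes an enzyme that degrades glutathione and is a sensitive RNA marker of ATF4 activity. Its promoter held the element letters on the opposite strand. It was at 5.88, 4.23 and 4.23 CPM in resistant PC3, against 10.1, 11.2 and 11.1 CPM in parental PC3. Resistant DU145 had 13.9, 16.4 and 16.2 CPM, against 34.0, 35.1 and 38.4 CPM in parental DU145. In both lines the resistant libraries were all lower. CHAC1 fell 2.25-fold in PC3 (log2 change -1.17 ± 0.13, adjusted p = 2.04e-06) and 2.31-fold in DU145 (-1.21 ± 0.13, adjusted p = 1.33e-06). The difference between the changes was 0.04 ± 0.18 (adjusted p = 0.939), which took the other sign when any of 4 single libraries was left out.

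DDIT4 and SESN2 both encode stress-induced inhibitors of mTORC1, the kinase complex that couples growth to amino acid supply. DDIT4 (ENSG00000168209, chromosome 10, bases 72273924 to 72276036, plus strand) was at 10.9, 9.71 and 8.69 CPM in resistant PC3, against 43.8, 49.6 and 47.8 CPM in parental PC3. In resistant DU145 it was at 113, 102 and 112 CPM, against 161, 150.3 and 170.4 CPM in parental DU145. DDIT4 was lower in all resistant libraries of either line. It fell 4.83-fold in PC3 (log2 change -2.27 ± 0.08, adjusted p = 5.13e-12), at the 6.87th percentile of all changes, and 1.47-fold in DU145 (-0.56 ± 0.07, adjusted p = 1.49e-05). The fall was larger in PC3, with a difference of -1.71 ± 0.11 (adjusted p = 3.51e-09).

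SESN2 (ENSG00000130766, chromosome 1, bases 28259518 to 28282491, plus strand), the leucine-binding sestrin, was at 15.2, 13.5 and 15.4 CPM in resistant PC3, against 9.06, 9.59 and 10.4 CPM in parental PC3. Resistant DU145 had 21.0, 17.5 and 14.3 CPM, against 40.6, 38.1 and 40.9 CPM in parental DU145. All resistant libraries were higher in PC3 and lower in DU145. SESN2 rose 1.52-fold in PC3 (log2 change 0.61 ± 0.12, adjusted p = 0.000676) and fell 2.27-fold in DU145 (-1.18 ± 0.12, adjusted p = 9.13e-07). Its changes differed by 1.79 ± 0.17 (adjusted p = 3.92e-07). The inhibitors of mTORC1 thus moved apart in resistant PC3, DDIT4 down and SESN2 up, and both fell in resistant DU145.

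STC2 (ENSG00000113739, chromosome 5, bases 173314713 to 173329503, minus strand) encodes a secreted glycoprotein induced by endoplasmic reticulum stress and low oxygen. It was at 57.8, 58.3 and 62.5 CPM in resistant PC3, against 168, 187 and 176 CPM in parental PC3. Resistant DU145 had 163, 166 and 171 CPM, against 194, 188 and 189 CPM in parental DU145. The resistant PC3 libraries thus lay far below the other 9, all of which were between 163 and 194 CPM. STC2 fell 2.97-fold in PC3 (log2 change -1.57 ± 0.05, adjusted p = 1.03e-12) and 1.14-fold in DU145 (-0.19 ± 0.05, adjusted p = 0.00368). The difference between the changes was -1.38 ± 0.07 (adjusted p = 1.69e-10).

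**Figure D2:**
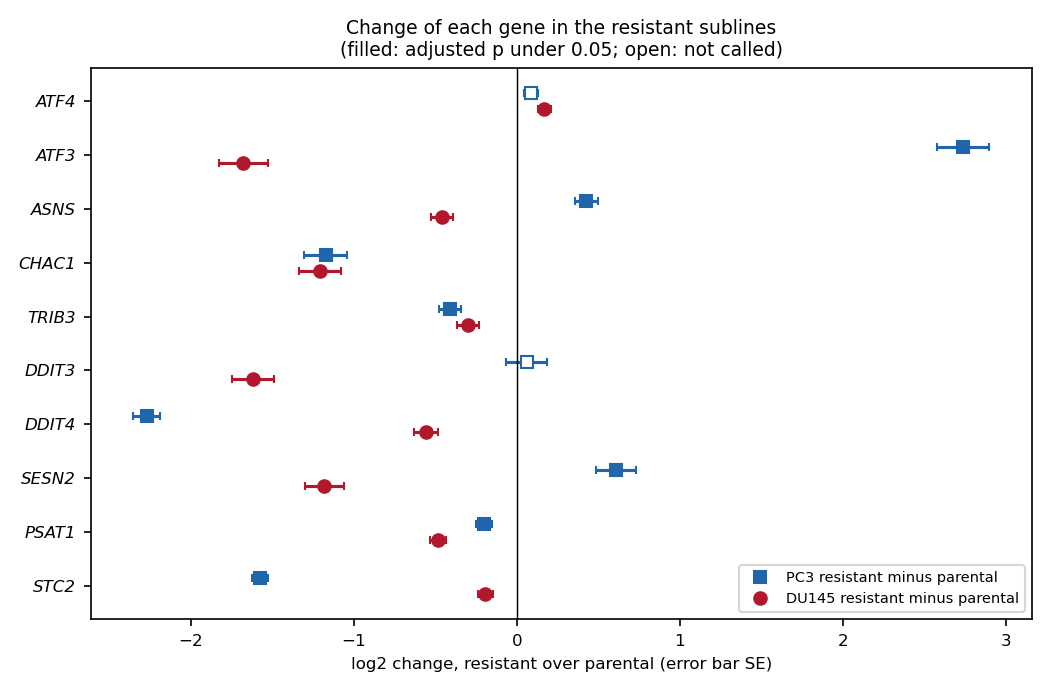
Log2 change of each gene, resistant over parental (horizontal axis), in PC3 (squares) and DU145 (circles), with SE bars from the edgeR model; open symbols did not pass an adjusted p of 0.05. ATF3 lies at 2.74 in PC3 and -1.68 in DU145, DDIT4 at -2.27 and -0.56, and CHAC1 at -1.17 and -1.21.

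Whether the resistant-minus-parental changes differed was tested in the same model as the PC3 change minus the DU145 change. The sublines also differ in starting dose (0.5 in PC3, 10 in DU145) and in IC50 reached (15 and 1800). Line, dose and resistance reached therefore cannot be told apart in this contrast. The difference between the changes passed for 7 of the 10 genes, against 42.1% of all genes tested. The difference was positive for ATF3, ASNS, DDIT3, SESN2 and PSAT1, where 22.1% of all genes were called positive, and negative for DDIT4 and STC2, where 20.0% were. ATF4, CHAC1 and TRIB3 did not pass. The median difference was 0.16 over the 10 genes and 0.02 over all genes. PSAT1 fell in both lines, so that its positive difference is a smaller fall in PC3 and not a rise.

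The lines themselves differed in these genes before and after selection. Between parental PC3 and parental DU145, 9 of 10 genes passed and all 9 were lower in PC3, against 60.3% of all genes tested that passed, 30.9% higher and 29.5% lower. Groups did not overlap for 10 of 10 genes, against 67.7% of all genes. The median log2 difference, PC3 minus DU145, was -1.75 over the 10 genes and 0.00 over all genes. PSAT1 averaged 79.9 ± 2.2 CPM in parental PC3 and 627 ± 25 CPM in parental DU145 (SD, n = 3 each), a 7.86-fold gap (log2 difference -2.97 ± 0.05, adjusted p = 4.29e-16). ATF3 was 11.3-fold lower in parental PC3 (-3.50 ± 0.16, adjusted p = 2.55e-11) and ASNS 4.83-fold lower (-2.27 ± 0.07, adjusted p = 2.11e-13). The amino acid enzymes ASNS and PSAT1, and also SESN2 (-2.04), DDIT4 (-1.77) and CHAC1 (-1.73), were thus far lower in PC3. The gaps were smaller for ATF4 (-0.67), DDIT3 (-0.58) and TRIB3 (-0.29), and all of these genes were called. STC2 differed by -0.10 ± 0.05 (adjusted p = 0.069), and passed under some other settings.

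Between resistant PC3 and resistant DU145, 9 of 10 genes passed, 7 lower and 2 higher in PC3, against 59.8% of all genes tested, 29.1% lower and 30.6% higher. The groups did not overlap for 9 of the 10 genes, against 66.5% of all genes. ATF3 and DDIT3, both factors, were the genes higher in resistant PC3, with log2 differences of 0.92 ± 0.15 (adjusted p = 5.72e-05) and 1.10 ± 0.13 (adjusted p = 1.44e-06). DDIT4 averaged 9.75 ± 1.08 CPM in resistant PC3 and 109 ± 6 CPM in resistant DU145 (SD, n = 3 each), 11.2-fold lower in PC3 (log2 difference -3.48 ± 0.08, adjusted p = 1.33e-14). PSAT1 was 6.45-fold lower in resistant PC3 (-2.69 ± 0.05, adjusted p = 1.59e-15). SESN2 did not pass (-0.26 ± 0.12, adjusted p = 0.0812), though it did without the third resistant DU145 library (-0.40, adjusted p = 0.00582). It also passed with a filter at 1 CPM (adjusted p = 0.0426) and with limma on log2(FPKM + 1) (adjusted p = 0.0422) and log2(FPKM + 0.1) (adjusted p = 0.0425). The remaining lower genes were CHAC1 (-1.70), STC2 (-1.48), ASNS (-1.39), ATF4 (-0.76) and TRIB3 (-0.40).

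Ranked over the 4 groups, 9 of the 10 genes were highest in parental DU145, and ATF4 was highest in resistant DU145. The share of all genes tested that were highest in parental DU145 was not computed. The count of 9 is therefore not read as particular to these genes. The lowest group was resistant PC3 for 5 genes (CHAC1, TRIB3, DDIT4, PSAT1 and STC2), parental PC3 for 4 (ATF4, ATF3, ASNS and SESN2) and resistant DU145 for DDIT3. Of the 30 steps between neighbouring groups, 24 passed the test. These include steps across both line and resistance, for which 58.6% (resistant PC3 against parental DU145) and 61.3% (parental PC3 against resistant DU145) of all genes passed. The 6 that did not were resistant against parental PC3 for ATF4 and DDIT3, parental PC3 against resistant DU145 for TRIB3 (adjusted p = 0.881) and STC2 (adjusted p = 0.119), resistant PC3 against resistant DU145 for SESN2, and parental PC3 against parental DU145 for STC2.

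Levels of different genes were set side by side in FPKM, a count scaled by library size and by transcript length, so that levels of genes can be compared. PSAT1 was the most abundant of the 10 in DU145, with 205 ± 9 FPKM in resistant and 292 ± 8 FPKM in parental cells (SD, n = 3 each). In PC3 ATF4 led instead, with 63.3 ± 1.2 FPKM in resistant and 61.3 ± 3.3 FPKM in parental cells, and PSAT1 had 30.5 ± 2.1 and 36.0 ± 0.9 FPKM. ATF4 itself had 111 ± 3 FPKM in resistant DU145 and 101 ± 1 FPKM in parental DU145. The least abundant gene was ATF3 in 3 groups, at 0.369 ± 0.023 FPKM in parental PC3, 1.32 ± 0.06 FPKM in resistant DU145 and 4.29 ± 0.27 FPKM in parental DU145. In resistant PC3 it was CHAC1, at 2.26 ± 0.43 FPKM, next to ATF3 at 2.40 ± 0.32 FPKM. The highest mean FPKM exceeded the lowest 28.0-fold in resistant PC3, 166-fold in parental PC3, 155-fold in resistant DU145 and 68.0-fold in parental DU145, so that the 10 genes spanned the smallest range in resistant PC3.

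**Figure D3:**
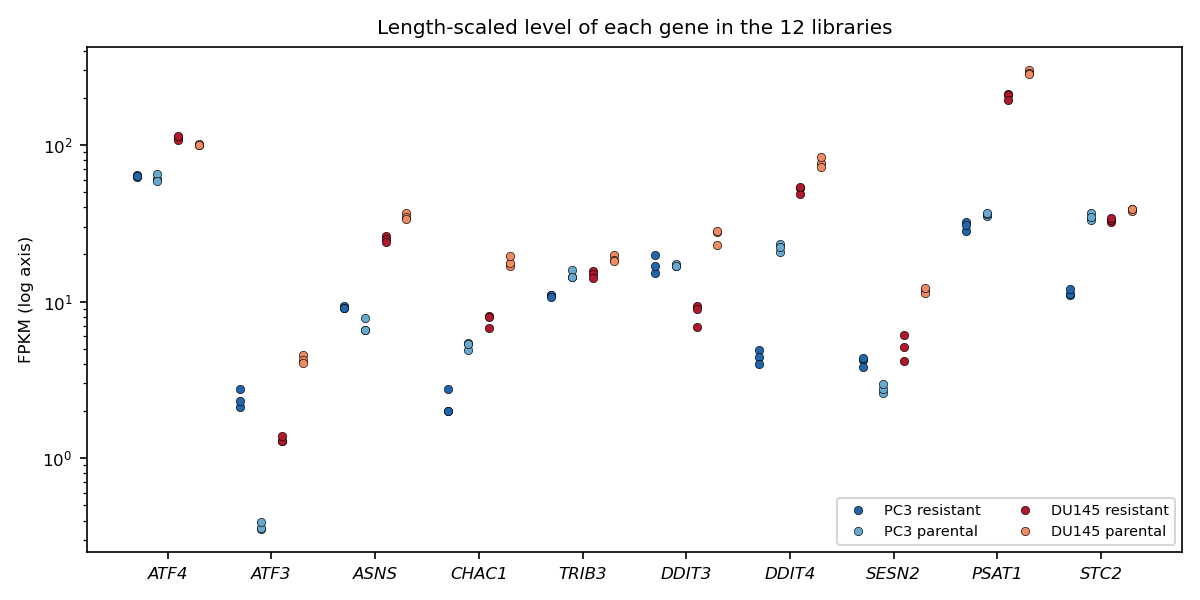
FPKM of each gene on a log axis in the 12 libraries, coloured by group, with 3 dots per group. PSAT1 lies near 30.5 and 36.0 FPKM in resistant and parental PC3 and near 205 and 292 FPKM in resistant and parental DU145, while ATF3 spans 0.369 FPKM in parental PC3 to 4.29 FPKM in parental DU145.

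The surrounding pathway was read from 8 lists holding 95 other genes. Genes named from a list were chosen as those with the largest changes, up to 3 per line. In that line they were called, with at least 1 CPM and no overlap between resistant and parental libraries. For some, the value in the other line is given too, where these conditions need not hold. Each list is described by its counts, with no test of the list. Over all genes tested, 22.4% were called higher and 21.6% lower in resistant PC3, and 18.9% higher and 20.7% lower in resistant DU145, and the median log2 change was 0.00 in both.

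Upstream of ATF4 are the eIF2alpha kinases and phosphatase subunits, listed with the partners of ATF4. Of 14 such genes, 8 were higher and 3 lower in resistant PC3 (median log2 change 0.32), and 5 were higher and 3 lower in resistant DU145 (median 0.02). PPP1R15A, the stress-induced phosphatase subunit that reverses eIF2alpha phosphorylation, rose in PC3 to 105 CPM in resistant cells, against 40.0 CPM in parental cells (log2 change 1.39 ± 0.07, adjusted p = 1.84e-10). EIF2AK3, which encodes the endoplasmic reticulum kinase PERK, fell in DU145 to 14.9 CPM in resistant cells, against 36.9 CPM in parental cells (-1.31 ± 0.09, adjusted p = 8.42e-09). CEBPB, a partner of ATF4, rose in both lines, by 0.89 ± 0.09 in PC3 (adjusted p = 3.57e-07) and by 0.98 ± 0.09 in DU145 (adjusted p = 1.54e-07). The stress-induced cofactor NUPR1 fell in PC3 (8.34 CPM in resistant and 30.4 CPM in parental cells, log2 change -1.86 ± 0.19, adjusted p = 6.45e-07). It rose in DU145 (2.45 CPM in resistant and 0.749 CPM in parental cells, 1.71 ± 0.21, adjusted p = 8.21e-06).

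Serine, glycine and mitochondrial one-carbon enzymes, which work around PSAT1, comprised 8 genes. In resistant PC3, 5 were higher and 1 lower (median 0.42), and in resistant DU145, 3 were higher and 3 lower (median -0.01). The folate enzymes MTHFD2 and MTHFD1 rose in PC3, by 0.91 ± 0.06 (adjusted p = 8.58e-09) and 0.62 ± 0.04 (adjusted p = 1.66e-09). Both also rose in DU145, by 0.17 ± 0.06 (adjusted p = 0.0364) and 0.22 ± 0.04 (adjusted p = 0.000201). PHGDH, the first enzyme of serine synthesis, fell in DU145 to 133 CPM in resistant cells, against 208 CPM in parental cells (-0.64 ± 0.06, adjusted p = 4.39e-07), as did SHMT1 (-0.54 ± 0.08, adjusted p = 3.73e-05). In PC3 PHGDH rose (0.35 ± 0.06, adjusted p = 0.000192). ALDH1L2, a mitochondrial folate enzyme, fell in both, by 0.94 in PC3 (adjusted p = 0.000197) and by 1.87 in DU145 (adjusted p = 3.66e-08) on the log2 scale. The PC3 change minus the DU145 change was called positive for 7 of these 8 genes and negative for none, against 22.1% and 20.0% of all genes tested.

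Of 10 other enzymes of amino acid metabolism, 3 were higher and 5 lower in resistant PC3 (median -0.23), and 1 was higher and 6 lower in resistant DU145 (median -0.42). BCAT1, a branched-chain aminotransferase, rose in PC3 and fell in DU145, as ASNS did. It was 18.5 CPM in resistant and 2.48 CPM in parental PC3 (2.89 ± 0.13, adjusted p = 2.14e-09), and 299 CPM in resistant and 707 CPM in parental DU145 (-1.24 ± 0.10, adjusted p = 7.32e-07). The argininosuccinate synthase ASS1 went the other way in each line, falling in PC3 (-2.27 ± 0.35, adjusted p = 5.75e-05) and rising in DU145 (1.29 ± 0.32, adjusted p = 0.00451). CBS and CTH catalyse the steps that make cysteine from homocysteine. CBS fell 18.0-fold in PC3, to 0.927 CPM in resistant cells, against 16.6 CPM in parental cells (-4.17 ± 0.15, adjusted p = 3.84e-12), and did not pass in DU145 (-0.25 ± 0.11, adjusted p = 0.0804). CTH went the other way in PC3, where it rose 2.52-fold (1.33 ± 0.13, adjusted p = 3.53e-07), and it fell in DU145 (-1.04 ± 0.13, adjusted p = 7.01e-06).

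Amino acid transporters numbered 10, of which 4 were higher and 5 lower in resistant PC3 (median -0.09), and 2 were higher and 6 lower in resistant DU145 (median -0.36). The cystine carrier SLC7A11 fell in both, to 65.8 CPM in resistant PC3, against 171 CPM in parental PC3 (-1.38 ± 0.11, adjusted p = 3.57e-07), and to 154 CPM in resistant DU145, against 331 CPM in parental DU145 (-1.10 ± 0.10, adjusted p = 3.14e-06). SLC7A5, the large neutral amino acid carrier that takes up leucine, rose 3.16-fold in PC3 (1.66 ± 0.09, adjusted p = 4.3e-09). SLC43A1, another carrier of large neutral amino acids, fell there (-1.25 ± 0.24, adjusted p = 0.000451). In DU145 the neutral amino acid carrier SLC1A4 (-1.46 ± 0.08, adjusted p = 1.13e-09) and the glycine carrier SLC6A9 (-1.06 ± 0.07, adjusted p = 8.06e-09) fell. In PC3 SLC1A4 fell too (-0.60 ± 0.08, adjusted p = 1.61e-05), and SLC6A9 was not called (0.13 ± 0.07, adjusted p = 0.177).

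The cytosolic aminoacyl-tRNA synthetases, which charge transfer RNAs and include known ATF4 targets, numbered 20. Of these, 14 were higher and 2 lower in resistant PC3 (median 0.42), and 11 were higher and 5 lower in resistant DU145 (median 0.17). KARS1 (1.32 ± 0.06, adjusted p = 3.9e-11), YARS1 (0.99 ± 0.05, adjusted p = 1.66e-10) and IARS1 (0.89 ± 0.05, adjusted p = 4.05e-10) rose in PC3. In DU145 KARS1 fell (-0.51 ± 0.06, adjusted p = 1.97e-06), while YARS1 (0.28 ± 0.05, adjusted p = 0.000217) and IARS1 (0.43 ± 0.05, adjusted p = 1.73e-06) rose there too. WARS1 fell in PC3 (-0.67 ± 0.06, adjusted p = 8.77e-08) and rose in DU145, with 363 CPM in resistant and 173 CPM in parental cells (1.07 ± 0.06, adjusted p = 5.09e-10). VARS1, with 163 CPM in resistant and 363 CPM in parental cells (-1.16 ± 0.05, adjusted p = 3.24e-11), and RARS1 (-0.56 ± 0.05, adjusted p = 3.63e-07) fell in DU145, and RARS1 rose in PC3 (0.33 ± 0.05, adjusted p = 8.92e-05). In DU145, more synthetase genes were thus called higher than lower, while ASNS fell.

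Other known ATF4 targets gave 12 tested genes of 13 listed. In resistant PC3, 4 were higher and 7 lower (median -0.64), and in resistant DU145, 3 were higher and 5 lower (median -0.12). The hormone gene ADM2 (-2.48 ± 0.15, adjusted p = 1.5e-09) and the ubiquitin ligase adaptor gene KLHL24 (-1.75 ± 0.09, adjusted p = 2.86e-10) fell in PC3. Both also fell in DU145, ADM2 by -0.64 ± 0.14 (adjusted p = 0.0012) and KLHL24 by -0.54 ± 0.10 (adjusted p = 0.000236). The cell cycle inhibitor gene CDKN1A fell in PC3 (11.8 CPM in resistant and 32.9 CPM in parental cells, -1.48 ± 0.11, adjusted p = 1.11e-08) and rose in DU145 (78.4 CPM in resistant and 33.4 CPM in parental cells, 1.23 ± 0.10, adjusted p = 8.66e-08). VEGFA, the angiogenic growth factor, fell in PC3 (-0.40 ± 0.06, adjusted p = 2.94e-05) and rose in DU145 (0.70 ± 0.06, adjusted p = 7.65e-08), and the ATF3-related factor JDP2 fell in DU145 (-0.98 ± 0.29, adjusted p = 0.0169).

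Among 9 close paralogs, 3 were higher and 2 lower in resistant PC3 (median 0.16), and 4 were higher and 1 lower in resistant DU145 (median 0.12). STC1, the paralog of STC2, rose in both resistant sublines, in which STC2 fell. It was at 179 CPM in resistant PC3 and 21.4 CPM in parental PC3, an 8.34-fold rise (3.06 ± 0.29, adjusted p = 1.95e-05). In DU145 it was at 55.7 CPM in resistant cells and 1.10 CPM in parental cells, a 51.0-fold rise (5.67 ± 0.38, adjusted p = 1.8e-06). CHAC2, the paralog of CHAC1, rose in PC3 (1.50 ± 0.20, adjusted p = 1.03e-05) and DU145 (0.74 ± 0.19, adjusted p = 0.00536), in both of which CHAC1 fell. TRIB2, a pseudokinase like TRIB3, fell in PC3 (-1.48 ± 0.11, adjusted p = 1.19e-08), and in DU145 it rose to 3.19 CPM in resistant cells, against 0.125 CPM in parental cells (4.66 ± 0.21, adjusted p = 6.07e-11). SESN3 fell in PC3 (-1.44 ± 0.14, adjusted p = 4.61e-07), where SESN2 rose, and rose in DU145 (1.53 ± 0.14, adjusted p = 2.92e-07), where SESN2 fell.

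The targets of ATF6 and XBP1 belong to the other branches of the endoplasmic reticulum stress response. All 13 fell in resistant DU145 (median log2 change -1.26), among them HERPUD1, which acts in the disposal of misfolded proteins (-1.88 ± 0.08, adjusted p = 2.01e-11), CRELD2 (-1.84 ± 0.09, adjusted p = 1.46e-10) and the chaperone gene HSP90B1, with 703 CPM in resistant and 2226 CPM in parental cells (-1.66 ± 0.04, adjusted p = 2.19e-14). In resistant PC3, 4 were higher, 4 lower and 5 not called (median -0.12). HERPUD1 was among the higher (0.21 ± 0.07, adjusted p = 0.03), although its resistant and parental libraries overlapped. The disposal gene EDEM1 (-1.33 ± 0.05, adjusted p = 4.17e-12), the chaperone gene HYOU1 (-0.74 ± 0.04, adjusted p = 1.61e-09) and the disposal gene SEL1L (-0.64 ± 0.05, adjusted p = 1.72e-08) were lower. The PC3 change minus the DU145 change was called positive for 11 of the 13 and negative for 1, against 22.1% and 20.0% of all genes tested. The lists did not all go this way. Of the 12 other ATF4 targets, 3 were called positive and 7 negative (median -0.66), and of the 9 paralogs 3 and 3. Positive and negative calls were 7 and 2 of 14 upstream genes and partners, and 7 and 3 of 10 other enzymes. They were 5 and 2 of 10 transporters, and 12 and 2 of 20 synthetases. DDIT3, CHAC1 and EIF2AK3 also fell in resistant DU145, but CHAC1 fell in resistant PC3 too (log2 change -1.17). Not all genes around ATF4 fell in resistant DU145. ATF4 (0.17), CEBPB (0.98) and NUPR1 (1.71) rose there, and PPP1R15A was not called (-0.08). Of the 20 synthetases, 11 were higher and 5 lower there.

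**Figure D4:**
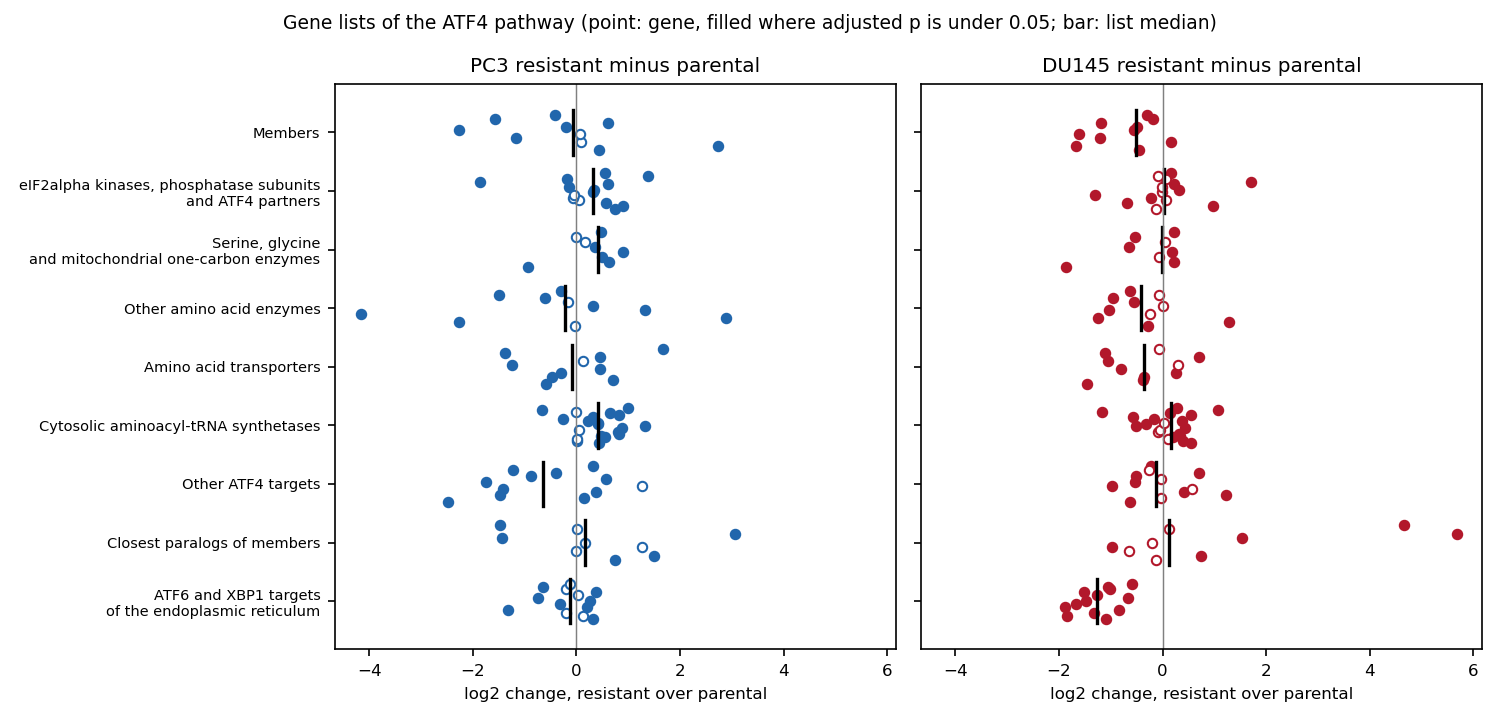
Log2 change, resistant over parental (horizontal axes), of the 10 genes (row Members) and of the genes of the 8 lists in PC3 and DU145; dots are genes, filled where the adjusted p was under 0.05, and bars are list medians. In DU145 all 13 targets of ATF6 and XBP1 lie below 0 around a median of -1.26, and in PC3 the tRNA synthetases lie around a median of 0.42.

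Of the 39 pathway genes named, 26 overlap another gene in the files, and for ALDH1L2, SHMT1 and CHAC2 an overlapping gene on the other strand held more counts than the gene itself. Their values are uncertain for the same reason as those of DDIT3.

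The genes closest to ATF4 in pattern over the 12 libraries, by the root mean square difference of centred log2(CPM + 0.5) among genes with at least 5 CPM, were C1orf43 (0.0329), FLAD1 (0.0469), CRK (0.0584), RAB34 (0.0602) and AKAP17A (0.0625). None of them is on the pathway lists. C1orf43, the nearest, averaged 162 CPM in resistant PC3, 152 CPM in parental PC3, 263 CPM in resistant DU145 and 241 CPM in parental DU145. For ASNS the nearest were ERLIN1 (0.0863), SHC1 (0.0985), BCL2L13 (0.119), MISP (0.120) and IPO9 (0.130), again outside the lists. ERLIN1 averaged 46.7 CPM in resistant PC3, 32.6 CPM in parental PC3, 133 CPM in resistant DU145 and 170.4 CPM in parental DU145. The 12 libraries form 4 groups, so these likenesses describe few independent points.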

How the data were processed

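For every library the authors deposited a table of 38611 genes with whole-number counts and FPKM values. The tools named are DESeq2, edgeR, StringTie 1.3.4d, HISAT2 2.0.4 and cutadapt 1.9, and the build hg18, per the submitters' processing notes, but gene coordinates in the deposited tables are those of GRCh38: of 37385 genes shared with GENCODE, 37345 overlapped their place there. Libraries were oligo(dT)-selected, paired-end and marked with dUTP, per the labels' protocols. Which program counted the reads, with which annotation and strand option, is not given in the sources used here.

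From the counts, genes were filtered with filterByExpr, libraries were scaled with TMM, and 1 mean per group was fitted to all 12 libraries with edgeR 4.0.16 in R 4.3.3 (glmQLFit, robust, 8 residual degrees of freedom). Contrasts were tested with the two-sided quasi-likelihood F test, with Benjamini-Hochberg adjustment over 24128 genes and a threshold of 0.05. The SE is the log2 change divided by the square root of F. CPM uses TMM-scaled totals, and folds are 2 to the power of the fitted log2 change.

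Alternatives were DESeq2 1.42.0, RLE scaling, no count filter or 1 CPM in 3 libraries, limma 3.58.1 on log2(FPKM + 1), log2(FPKM + 0.1) and log2(TPM + 1), each line alone, a replicate block and leaving out each library. Removing mitochondrial genes was added after seeing the data. On simulated data the fit missed part of the genes made to change, chiefly those of low counts, and the share required to pass was lowered after the first outcome was seen. The 10 genes and the gene lists were chosen with earlier results of these data known. All 10 genes were described in every comparison. From each list up to 3 called genes per line with at least 1 CPM and no overlap between groups were named, those with the largest changes. For some of these the value in the other line is given without these conditions. The 5 genes nearest in pattern were named for ATF4 and ASNS. FGF21, KLK2 and KLK3 were not analysed here.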

Additional observations from a re-analysis of the deposited data

Results flagged for a closer look

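For 7 of the 10 genes the resistant-minus-parental change differed between the lines by the test of the difference in edgeR's model. The PC3 change minus the DU145 change was 4.42 for ATF3 (2.74 in PC3 and -1.68 in DU145), 1.79 for SESN2 (0.61 and -1.18) and 0.88 for ASNS (0.43 and -0.46), each with a rise in all 3 resistant PC3 libraries and a fall in all 3 resistant DU145 libraries. It was 1.68 for DDIT3, whose PC3 change of 0.06 did not pass. It was -1.71 for DDIT4 and -1.38 for STC2, which fell further in PC3, and 0.28 for PSAT1, which fell further in DU145. With 42.1% of all genes tested passing the same test, 7 of 10 is not read as particular to these genes.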

How the results depend on the processing

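Under every alternative run, the counts of genes called stayed within 1.5 times those reported. Of the 10 genes, those called were 10 in DU145 (9 on TPM), 8 to 9 in PC3 and 7 for the difference between the lines (8 on TPM). Of 1050 recomputed changes of single genes, 1026 kept their direction and side of the threshold, 15 newly passed in the same direction, 2 no longer passed and 7 changed sign. All 7 had not passed in the reported fit, and 1 of them, ATF4 on TPM below, newly passed. DDIT3 in PC3 was -0.044 without the second resistant PC3 library and at most 0.13 without any other. The line difference of CHAC1 was -0.016, -0.045, -0.010 and -0.15 without the third parental DU145, first resistant DU145, first parental PC3 and first resistant PC3 library. On log2(TPM + 1), the line difference was 0.15 for ATF4 (adjusted p = 0.0422, limma) and 0.12 for TRIB3, where the median of all genes was 0.14 instead of 0.02. On TPM, 36.1% of DU145 calls were higher instead of 47.7%, and 62.8% of difference calls were positive instead of 52.5%. The cause was not tested. On log2(FPKM + 1), ATF3 moved to 1.31 in PC3 and -1.19 in DU145, since the pseudocount shrinks low values.

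With a replicate block the counts over all genes were 10183 in PC3, 9047 in DU145 and 9685 for the difference, against 10615, 9554 and 10150 without, and of the 10 genes 8, 10 and 7 were called, as before. Same-numbered libraries of a line did not deviate together (correlations -0.111 to 0.0248 over 12202 genes), so the numbers were not taken as pairs. No block was fitted between the lines. Counts were lowest for ATF3 in parental PC3, at 94 to 103 per library, so its fold is the one depth limits most among the 10 genes.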
